A study of Mus musculus with 12 samples.

Results

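The genes described here are 10 mouse genes of transforming growth factor beta (TGF-beta) and bone morphogenetic protein (BMP) signalling: the ID genes Id1, Id2, Id3 and Id4, the inhibitory SMAD genes Smad6 and Smad7, and the ligand genes Bmp4, Tgfb1, Tgfb2 and Tgfb3. They were named by symbol, with earlier results of these data known, so counts of members that passed are descriptions only. They were matched to 10 of the 53801 gene identifiers in the counts. RNA carrying a poly(A) tail was sequenced from C2C12 cells, a mouse line of muscle precursor cells (myoblasts), in 12 libraries. The design crossed a knockdown of Cebpg, which encodes the leucine zipper protein C/EBP gamma, with 6 h of thapsigargin, a drug that drains calcium from the endoplasmic reticulum and sets off its stress response. The question put by the design is how the response to that stress depends on Cebpg.

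The 4 groups held 3 libraries each. Sh2-Thap was the knockdown cells with thapsigargin, Sh2-DMSO the knockdown cells with the solvent DMSO, Ctrl-Thap the control cells with thapsigargin and Ctrl-DMSO the control cells with DMSO. All groups are C2C12 by the source field, although the growth protocol speaks of HeLa cells. The knockdown appears under 1 label only, Sh2, and the sources used here do not say what control cells received or which thapsigargin dose was used. An effect of the knockdown, an off-target effect and a lasting difference between the cell populations therefore cannot be told apart. The labels do not say whether replicates were separate cultures, so the p-values rest on a spread between libraries that may be technical.

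Ligands of this family are secreted dimers that bring together receptor kinases at the cell surface, and the receptors phosphorylate SMAD transducers, which then act on genes in the nucleus. Smad6 and Smad7 are transcribed in response to many of these signals and block them at the receptor, Smad6 mainly for BMP and Smad7 for both branches. ID proteins are textbook BMP targets: they hold the E proteins that MyoD and its relatives need as partners, and in myoblasts they delay fusion into muscle fibres, as added TGF-beta and BMP do.

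Libraries held 29.4 to 47.7 M reads on genes (M, units of 1000000), and 15828 genes passed the filter on low counts and were tested. Cebpg had 5.29 to 6.11 CPM (counts per 1000000 gene reads, scaled by the TMM method) in Sh2-Thap libraries and 211 to 219 CPM in Ctrl-Thap libraries. In DMSO it had 3.74 to 5.18 CPM in Sh2 libraries and 51.5 to 60.6 CPM in Ctrl libraries. The 7 myoblast markers were each above 1 CPM in every group. They summed to 1747 to 1840 CPM in Sh2-Thap and 1826 to 1945 CPM in Sh2-DMSO libraries, and to 1731 to 1805 CPM in Ctrl-Thap and 2122 to 2290 CPM in Ctrl-DMSO libraries. Leukocyte markers summed to at most 8.49 CPM and adipocyte markers to at most 1.89 CPM. The summed level of 5 epithelial markers was 29.2 to 32.4 CPM in Sh2-Thap and 14.5 to 17 CPM in Sh2-DMSO libraries, and 18.7 to 21.0 CPM in Ctrl-Thap and 14.2 to 15 CPM in Ctrl-DMSO libraries. For 5 endothelial markers it was 18.4 to 21.1 CPM in Sh2-Thap and 5.90 to 6.95 CPM in Sh2-DMSO libraries, and 27.5 to 32.3 CPM in Ctrl-Thap and 4.19 to 5.11 CPM in Ctrl-DMSO libraries. Of these markers, 1 to 3 of 5 epithelial and 1 to 3 of 5 endothelial genes were above 1 CPM in a group, and Epcam was at 0 in both Ctrl groups. The epithelial, endothelial and, in Ctrl cells, myoblast sums moved with thapsigargin as several members did, and their part in the members' changes was not tested. The sums hide opposite moves. With thapsigargin Myf5 rose from 73.6 to 416 CPM in Sh2 and from 61.8 to 252 CPM in Ctrl cells. The other myoblast markers fell, Des from 764 to 545 CPM and from 1186 to 784 CPM. Krt14 held most of the epithelial sum and Tek most of the endothelial sum. Tek and Pecam1 were lower in Sh2-Thap than in Ctrl-Thap cells, whereas Vwf, Kdr and Cdh5 were higher. In bulk RNA, fewer cells that express a gene and less of its RNA per cell cannot be told apart.

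Each comparison asked which genes differed between groups, with edgeR's quasi-likelihood test over all 12 libraries and Benjamini-Hochberg adjusted p-values under 0.05 taken as a change. With thapsigargin present, 4 members were higher and 3 lower in Sh2 than in Ctrl cells and 3 did not pass, while 28.5% of all genes tested were higher and 28.4% lower (56.9% in all). In DMSO, 5 members were higher and 3 lower in Sh2 than in Ctrl cells and 2 did not pass, while 25% of all genes were higher and 26.5% lower (51.5% in all). Thapsigargin raised 2 members, lowered 7 and left 1 short of the threshold in Sh2 cells, where it raised 35.4% and lowered 34.4% of all genes (69.8% in all). In Ctrl cells it raised 3, lowered 6 and left 1 short, where it raised 37.7% and lowered 37% of all genes (74.7% in all). The thapsigargin effects in the Sh2 and Ctrl cells differed for 7 members, 2 upward and 5 downward in Sh2 minus Ctrl, and for 35.3% of all genes (17.6% upward and 17.7% downward). The 2 members raised in Sh2 cells became 1, without Id4, in 13 of 21 alternatives, among them those without Ctrl-DMSO replicate 2, any Ctrl-Thap replicate, Sh2-DMSO replicate 1 or 3, or Sh2-Thap replicate 2 or 3. The 5 downward differences became 3, without Id4 and Smad6, when Ctrl-Thap replicate 3 or Sh2-DMSO replicate 2 was left out. Under total-count scaling 4 differences were upward and 3 downward. Groups with no overlap between libraries were found for 62.1% of all genes in Sh2-Thap and Ctrl-Thap, 57.1% in Sh2-DMSO and Ctrl-DMSO, 71.4% in Sh2-Thap and Sh2-DMSO and 77.1% in Ctrl-Thap and Ctrl-DMSO, so that lack of overlap alone was common. The median log2 change over the members was 0.092 and 0.14 for Sh2 over Ctrl with thapsigargin and in DMSO, against 0.016 and 0 over all genes. For thapsigargin over DMSO it was -0.53 in Sh2 and -0.39 in Ctrl cells, against 0.0011 and -0.00035 over all genes. The comparisons share groups and are not independent: the Ctrl-DMSO libraries, for example, serve the knockdown comparison in DMSO and the thapsigargin comparison in Ctrl cells. Scaling by total counts alone moved the median of all genes to 0.15 for Sh2-Thap over Ctrl-Thap, to 0.12 for Sh2-Thap over Sh2-DMSO and to 0.17 for the difference of effects. Under that scaling 66.6% of the genes that passed in Sh2-Thap over Ctrl-Thap were higher, against 50.1% with TMM, and 75.5% of those in the difference of effects, against 49.9%. The changes below are relative to the typical gene under TMM.

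**Figure D1:**
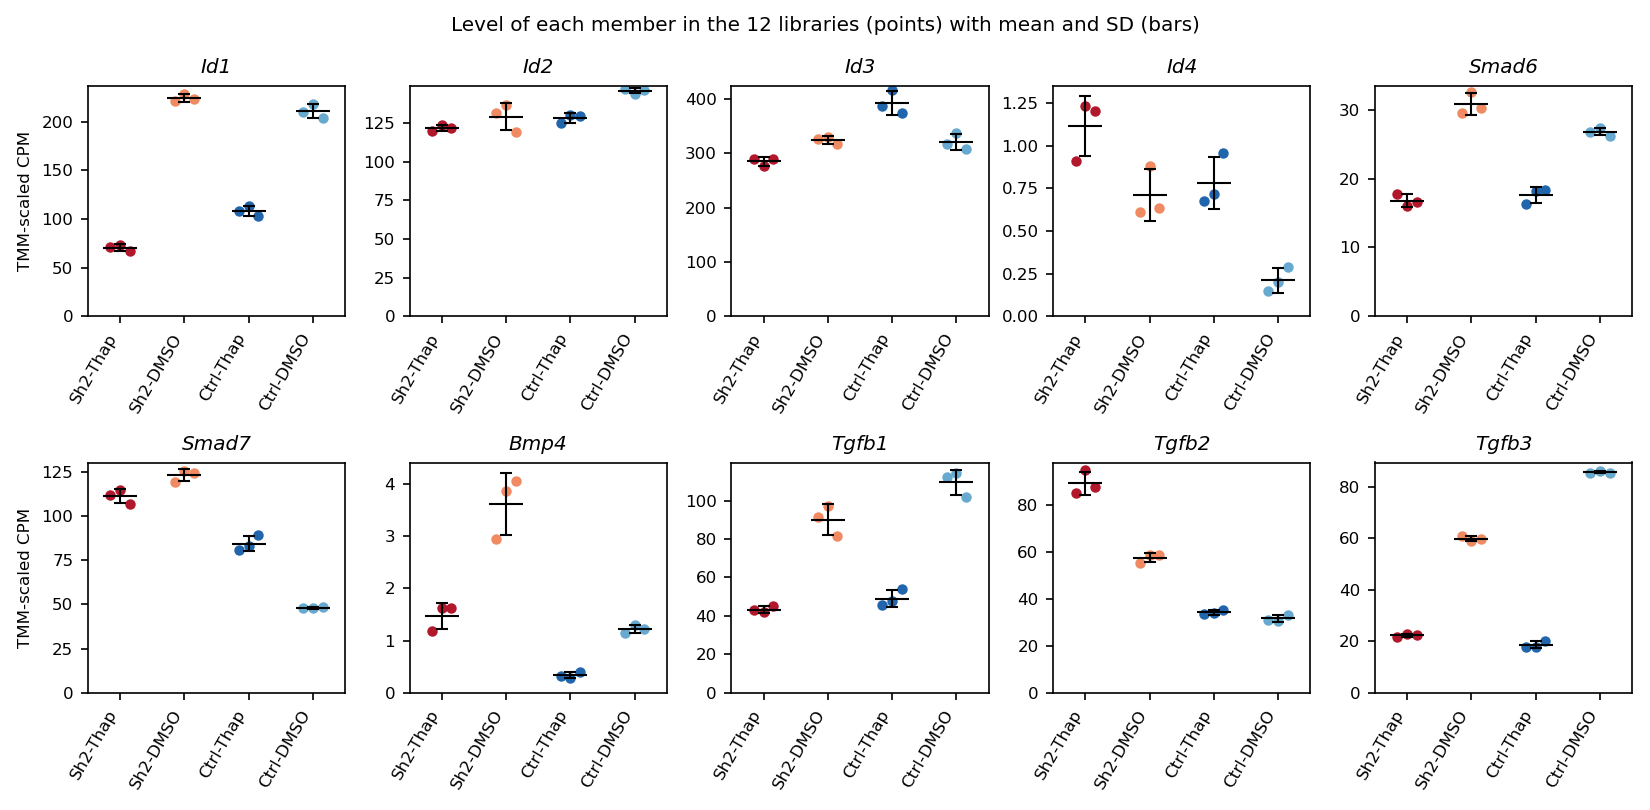
TMM-scaled CPM (y axis, linear, 1 panel per gene) of the 10 members in the 4 groups; points are the 12 libraries, bars the mean and SD of 3 libraries. Smad7 and Tgfb2 sit higher in both Sh2 groups than in either Ctrl group, whereas Id1, Tgfb1, Tgfb3 and Smad6 sit lower in both thapsigargin groups than in either DMSO group.

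Promoter windows, from 250 bases before to 50 bases after the RefSeq start (GRCm38.p6), were matched for 7 of the 10 members: Id2, Id3, Id4, Smad6, Bmp4, Tgfb1 and Tgfb2. Those of 4 members are printed below, namely of the ligand genes that were higher in Sh2 than in Ctrl cells in both treatments, of the inhibitory SMAD gene with a SMAD-type motif at its start, and of the ID gene whose thapsigargin response turned round between Sh2 and Ctrl cells.

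Capitals mark matches to 6 motifs searched on both strands, chosen after the windows had been seen: GTCTAGAC (the SMAD palindrome), GGCGCC (a GC-rich SMAD motif), TGACG (the core of the cAMP response element, shown as CGTCA where it lies on the other strand), TGACGTCA (the full element, which contains TGACG), TGATGNAA (the ATF4 and C/EBP composite motif) and TTGCGCAA (a C/EBP-type palindrome). Positions count from 0 at the RefSeq start, with minus before it.
Bmp4 promoter (chr14:46390620-46390919, minus strand, no match): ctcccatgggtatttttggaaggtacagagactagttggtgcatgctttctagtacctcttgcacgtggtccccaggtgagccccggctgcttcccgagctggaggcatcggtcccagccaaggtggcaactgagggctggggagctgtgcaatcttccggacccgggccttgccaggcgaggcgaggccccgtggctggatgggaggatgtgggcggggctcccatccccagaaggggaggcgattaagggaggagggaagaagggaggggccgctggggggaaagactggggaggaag
Tgfb2 promoter (chr1:186705940-186706239, minus strand, CGTCA at -72 to -68): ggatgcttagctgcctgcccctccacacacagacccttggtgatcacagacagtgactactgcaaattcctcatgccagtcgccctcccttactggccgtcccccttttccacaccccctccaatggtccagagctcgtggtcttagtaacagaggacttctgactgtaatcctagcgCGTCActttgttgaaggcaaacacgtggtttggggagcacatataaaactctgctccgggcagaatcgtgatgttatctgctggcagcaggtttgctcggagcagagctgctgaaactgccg
Smad6 promoter (chr9:64022010-64022309, minus strand, TTGCGCAA at -39 to -32 and GTCTAGAC at -4 to 3): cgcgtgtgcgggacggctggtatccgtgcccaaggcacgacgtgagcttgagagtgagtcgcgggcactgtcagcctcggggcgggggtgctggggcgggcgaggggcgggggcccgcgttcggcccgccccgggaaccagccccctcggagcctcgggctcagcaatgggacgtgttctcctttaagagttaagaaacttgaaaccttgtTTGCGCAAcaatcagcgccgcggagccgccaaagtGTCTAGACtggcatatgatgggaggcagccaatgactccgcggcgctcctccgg
Id3 promoter (chr4:136143572-136143871, plus strand, CGTCA at -170 to -166): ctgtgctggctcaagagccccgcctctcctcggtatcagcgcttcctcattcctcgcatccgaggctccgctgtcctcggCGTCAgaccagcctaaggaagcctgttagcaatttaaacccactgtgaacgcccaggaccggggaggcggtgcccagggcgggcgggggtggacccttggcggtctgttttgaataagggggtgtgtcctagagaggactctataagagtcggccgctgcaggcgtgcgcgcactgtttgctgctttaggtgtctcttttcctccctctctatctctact

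In the windows not printed, GGCGCC lay at -231 to -226 in Id2 and at -148 to -143 in Id4, and CGTCA lay at -229 to -225 in Id4. Tgfb1, like Bmp4, held none of the 6. Neither TGATGNAA nor TGACGTCA was found in any of the 7 windows. Over all 32851 promoter windows of the same length, GTCTAGAC was present in 0.213%, TTGCGCAA in 0.183%, TGATGNAA in 3.97%, TGACGTCA in 1.79%, GGCGCC in 11.9% and TGACG in 20.8%. A match describes letters in the window and is not a shown binding site.

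Among the ligands, Bmp4 (ENSMUSG00000021835, chromosome 14, 46383520 to 46390669, GRCm38, minus strand), which encodes a BMP that induces bone and holds back myoblast differentiation, was the least abundant. It had 1.18, 1.62 and 1.62 CPM in Sh2-Thap libraries and 0.322, 0.282 and 0.393 CPM in Ctrl-Thap libraries. In DMSO its level was 2.94, 3.86 and 4.05 CPM in Sh2 and 1.14, 1.29 and 1.21 CPM in Ctrl libraries. Every Sh2 library was above every Ctrl library of the same treatment, and every thapsigargin library below every DMSO library of the same cells. The values rest on few reads: 40, 50 and 55 in Sh2-Thap, 91, 131 and 140 in Sh2-DMSO, 10, 13 and 14 in Ctrl-Thap and 39, 45 and 42 in Ctrl-DMSO.

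Bmp4 was 4.43-fold higher in Sh2-Thap than in Ctrl-Thap cells (log2 change 2.15, SE 0.27, adjusted p = 3.27e-08) and 2.98-fold higher in Sh2-DMSO than in Ctrl-DMSO cells (log2 change 1.58, SE 0.19, adjusted p = 2.84e-08). Thapsigargin left 40.5% of the DMSO level in Sh2 cells (log2 change -1.30, SE 0.19, adjusted p = 2.94e-07) and 27.3% in Ctrl cells (log2 change -1.87, SE 0.28, adjusted p = 3.45e-07). The difference between these thapsigargin effects did not pass (0.57, 95% interval -0.13 to 1.27, adjusted p = 0.212).

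Tgfb2 (ENSMUSG00000039239, chromosome 1, 186622792 to 186705989, minus strand) encodes TGF-beta 2, the isoform best known from heart, palate and eye development. Its level was 85.3, 95.1 and 87.8 CPM in Sh2-Thap libraries and 33.5, 34.0 and 35.5 CPM in Ctrl-Thap libraries. In DMSO it had 55.5, 58.8 and 59.0 CPM in Sh2 and 31.1, 30.8 and 33.3 CPM in Ctrl libraries. Sh2 and Ctrl libraries did not overlap in either treatment, and the Sh2-Thap libraries were the highest of all. The level was 2.6-fold higher in Sh2-Thap than in Ctrl-Thap cells (log2 change 1.38, SE 0.054, adjusted p = 1.2e-20) and 1.82-fold higher in Sh2-DMSO than in Ctrl-DMSO cells (log2 change 0.86, SE 0.056, adjusted p = 1.16e-14). Of all genes tested, 2.77% had a larger rise in the first of these comparisons and 8.52% in the second.

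Thapsigargin raised Tgfb2 1.55-fold in Sh2 cells (log2 change 0.63, SE 0.053, adjusted p = 1.93e-12). In Ctrl cells the change did not pass (log2 change 0.11, SE 0.057, adjusted p = 0.0728, 95% interval -0.0029 to 0.23), although every Ctrl-Thap library lay above every Ctrl-DMSO library. That Ctrl change passed in 5 of 21 alternatives, namely with the size factors of DESeq2, with the stricter filter, with DESeq2 itself, with only the Ctrl groups in the fit and without Ctrl-DMSO replicate 3 (log2 change 0.14, adjusted p = 0.0433). The effect in Sh2 minus that in Ctrl cells was 0.52 (SE 0.077, adjusted p = 2.25e-06).

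Tgfb3 (ENSMUSG00000021253, chromosome 12, 86056745 to 86079041, minus strand), the isoform needed for palate fusion, showed the largest fall of the members with thapsigargin in Ctrl cells. It had 21.6, 22.8 and 22.4 CPM in Sh2-Thap libraries and 61.1, 59.1 and 59.6 CPM in Sh2-DMSO libraries. The Ctrl cells had 17.9, 17.9 and 20.2 CPM with thapsigargin and 85.5, 86.0 and 85.5 CPM in DMSO. Every thapsigargin library was below every DMSO library, and the order of Sh2 and Ctrl cells was opposite with thapsigargin and in DMSO.

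Thapsigargin left 37.2% of the Tgfb3 level in Sh2 cells (log2 change -1.43, SE 0.057, adjusted p = 7.58e-21) and 21.8% in Ctrl cells (log2 change -2.20, SE 0.056, adjusted p = 2.33e-26), and the effect was smaller in Sh2 cells by 0.77 on the log2 scale (adjusted p = 1.83e-09). Tgfb3 was higher in Sh2-Thap than in Ctrl-Thap cells (log2 change 0.26, SE 0.061, adjusted p = 0.000567), by 0.39 under total-count scaling, and lower in Sh2-DMSO than in Ctrl-DMSO cells (log2 change -0.52, SE 0.051, adjusted p = 3.67e-10).

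Tgfb1 (ENSMUSG00000002603, chromosome 7, 25687002 to 25705077, plus strand) encodes TGF-beta 1, the isoform most tied to fibrosis and to the block of muscle repair. Its level was 43.1, 41.8 and 45.1 CPM in Sh2-Thap libraries and 91.7, 97.3 and 81.4 CPM in Sh2-DMSO libraries. In Ctrl cells it was 45.5, 47.7 and 53.8 CPM with thapsigargin and 112, 114 and 102 CPM in DMSO. Thapsigargin and DMSO libraries were far apart in both cell populations, and the Sh2 libraries lay just below the Ctrl libraries of the same treatment. Thapsigargin left 48.1% of the level in Sh2 cells (log2 change -1.06, SE 0.065, adjusted p = 1.66e-14) and 44.8% in Ctrl cells (log2 change -1.16, SE 0.063, adjusted p = 6.97e-16). The difference between those effects did not pass (0.10, 95% interval -0.082 to 0.29, adjusted p = 0.411), except under total-count scaling (log2 change 0.26, adjusted p = 0.0194).

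Between cell populations Tgfb1 was lower in Sh2-DMSO than in Ctrl-DMSO cells (log2 change -0.28, SE 0.061, adjusted p = 0.000351) and lower in Sh2-Thap than in Ctrl-Thap cells (log2 change -0.18, SE 0.066, adjusted p = 0.0227). The second call was kept in 16 of 21 alternatives. It was lost at a threshold of 0.01 and under total-count scaling (log2 change -0.045, adjusted p = 0.574). It was also lost without Ctrl-Thap replicate 3 (log2 change -0.11, adjusted p = 0.166), without Sh2-Thap replicate 1 (log2 change -0.18, adjusted p = 0.0525) and without Sh2-Thap replicate 2 (log2 change -0.15, adjusted p = 0.092). Its adjusted p over the 21 alternatives ran from 0.00709 to 0.574.

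**Figure D2:**
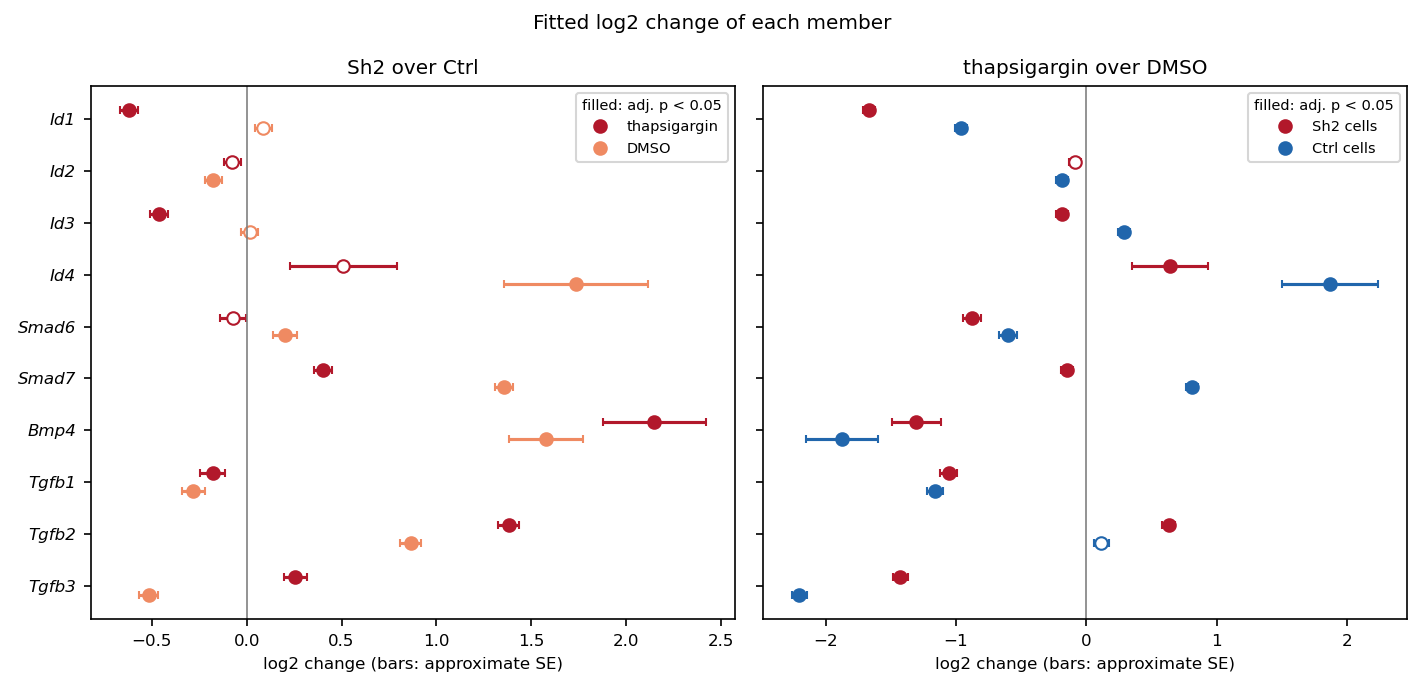
Fitted log2 change (x axis) of each member for Sh2 over Ctrl (left, with thapsigargin and in DMSO) and for thapsigargin over DMSO (right, in Sh2 and in Ctrl cells); bars are approximate SEs and filled points have an adjusted p under 0.05. Bmp4 and Tgfb2 lie right of 0 in both knockdown comparisons, and Id3 and Smad7 lie on opposite sides of 0 for thapsigargin in Sh2 and in Ctrl cells.

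Of the inhibitory SMADs, Smad7 (ENSMUSG00000025880, chromosome 18, plus strand) showed a knockdown difference in both treatments. It had 112, 115 and 107 CPM in Sh2-Thap libraries and 119, 126 and 124 CPM in Sh2-DMSO libraries. The Ctrl libraries had 80.9, 82.9 and 89.1 CPM with thapsigargin and 47.8, 48.0 and 48.7 CPM in DMSO. All Sh2 libraries exceeded all Ctrl libraries, and thapsigargin libraries lay above DMSO libraries in Ctrl cells but below them in Sh2 cells.

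Smad7 was 2.56-fold higher in Sh2-DMSO than in Ctrl-DMSO cells (log2 change 1.36, SE 0.048, adjusted p = 3.79e-21) and 1.32-fold higher in Sh2-Thap than in Ctrl-Thap cells (log2 change 0.40, SE 0.047, adjusted p = 6.26e-09). Thapsigargin raised it 1.75-fold in Ctrl cells (log2 change 0.81, SE 0.049, adjusted p = 2.82e-16). In Sh2 cells the drug left 90.4% of the DMSO level (log2 change -0.15, SE 0.046, adjusted p = 0.00594), a fall lost under total-count scaling (log2 change -0.027, adjusted p = 0.609). The effect in Sh2 minus that in Ctrl cells was -0.95 (SE 0.067, adjusted p = 3.41e-13).

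Smad6 (ENSMUSG00000036867, chromosome 9, 63953076 to 64022059, minus strand), the inhibitor of the BMP branch, was the scarcer of the pair at 16.8 ± 0.897 CPM in Sh2-Thap, 30.8 ± 1.59 CPM in Sh2-DMSO, 17.6 ± 1.13 CPM in Ctrl-Thap and 26.8 ± 0.539 CPM in Ctrl-DMSO cells (mean ± SD, n = 3). By library it had 17.8, 16 and 16.6 CPM in Sh2-Thap and 16.3, 18.2 and 18.4 CPM in Ctrl-Thap, which overlapped. In DMSO the libraries had 29.6, 32.6 and 30.3 CPM in Sh2 and 26.9, 27.3 and 26.3 CPM in Ctrl cells, which did not. Thapsigargin lowered Smad6 to 54.5% of the DMSO level in Sh2 cells (log2 change -0.88, SE 0.068, adjusted p = 3.24e-13) and to 65.9% in Ctrl cells (log2 change -0.60, SE 0.067, adjusted p = 1.18e-09).

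The gap between those Smad6 effects passed narrowly (log2 change -0.27, SE 0.096, adjusted p = 0.0242) and did so in 12 of 20 alternatives, with adjusted p from 0.0114 to 0.354. It was lost under total-count scaling (log2 change -0.12, adjusted p = 0.354), with no filter on low counts (log2 change -0.26, adjusted p = 0.0707) and at a threshold of 0.01. It was also lost without Ctrl-DMSO replicate 3, Ctrl-Thap replicate 2, Ctrl-Thap replicate 3, Sh2-DMSO replicate 2 or Sh2-Thap replicate 2, where the log2 difference lay between -0.26 and -0.23. Smad6 was higher in Sh2-DMSO than in Ctrl-DMSO cells (log2 change 0.20, SE 0.065, adjusted p = 0.00958), a call lost without Sh2-DMSO replicate 2 (log2 change 0.16, adjusted p = 0.0666). With thapsigargin the change did not pass (log2 change -0.072, SE 0.07, adjusted p = 0.399) and its sign turned under total-count scaling (log2 change 0.061, adjusted p = 0.468). Per kilobase of exon, Smad7 stood 4.71 ± 0.326 times above Smad6 in Sh2-Thap, 2.83 ± 0.0938 times in Sh2-DMSO, 3.39 ± 0.143 times in Ctrl-Thap and 1.27 ± 0.0367 times in Ctrl-DMSO cells (ratio within each library, mean ± SD, n = 3), a ratio that no scaling alters.

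The ID genes did not move together. Id1 (ENSMUSG00000042745, chromosome 2, 152736251 to 152737410, plus strand), an early BMP target in many cells, had 71.6, 73.4 and 66.9 CPM in Sh2-Thap libraries and 221, 228 and 223 CPM in Sh2-DMSO libraries. In Ctrl cells it had 109, 114 and 103 CPM with thapsigargin and 210.2, 218 and 204 CPM in DMSO. All 6 thapsigargin libraries were below all 6 DMSO libraries, and the Sh2-Thap libraries were the lowest. Thapsigargin left 31.5% of the DMSO level in Sh2 cells (log2 change -1.67, SE 0.048, adjusted p = 1.37e-24) and 51.5% in Ctrl cells (log2 change -0.96, SE 0.046, adjusted p = 7.91e-19). The fall was larger in Sh2 cells, with a difference of -0.71 (SE 0.066, adjusted p = 2.01e-10).

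Id1 was lower in Sh2-Thap than in Ctrl-Thap cells (log2 change -0.62, SE 0.048, adjusted p = 5.29e-13). In DMSO the change did not pass (log2 change 0.088, SE 0.045, adjusted p = 0.107, 95% interval -0.0048 to 0.18), although every Sh2-DMSO library was above every Ctrl-DMSO library. It passed with the stricter filter (log2 change 0.10, adjusted p = 0.0476) and without Ctrl-DMSO replicate 2 (log2 change 0.13, adjusted p = 0.0399), over a range of 0.0399 to 0.338.

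Id3 (ENSMUSG00000007872, chromosome 4, 136143497 to 136145755, plus strand), often induced with Id1, had the highest mean CPM of the members in every group. Its level was 289, 276 and 290.0 CPM in Sh2-Thap libraries and 327, 331 and 317 CPM in Sh2-DMSO libraries. In Ctrl cells it was 387, 417 and 373 CPM with thapsigargin and 318, 338 and 308 CPM in DMSO. Thapsigargin libraries lay below DMSO libraries in Sh2 cells and above them in Ctrl cells, with no overlap in either. Id3 rose with thapsigargin in Ctrl cells (log2 change 0.29, SE 0.046, adjusted p = 9.49e-07) and fell in Sh2 cells (log2 change -0.19, SE 0.046, adjusted p = 0.000542), a fall lost under total-count scaling (log2 change -0.068, adjusted p = 0.18).

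The Id3 effect in Sh2 minus that in Ctrl cells was -0.48 (SE 0.065, adjusted p = 3.69e-07). Id3 was lower in Sh2-Thap than in Ctrl-Thap cells (log2 change -0.46, SE 0.046, adjusted p = 1.83e-10). In DMSO the Sh2 and Ctrl libraries overlapped and the change did not pass (log2 change 0.016, SE 0.046, adjusted p = 0.804, 95% interval -0.077 to 0.11); its sign turned under total-count scaling and without Ctrl-DMSO replicate 3.

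Id2 (ENSMUSG00000020644, chromosome 12, 25093799 to 25097140, minus strand), the ID gene also known from lymphoid cells and neural precursors, varied least over the 12 libraries. It had 120.0, 124 and 122 CPM in Sh2-Thap and 125, 130.4 and 130.0 CPM in Ctrl-Thap libraries. In DMSO it had 132, 137 and 119.5 CPM in Sh2 and 147, 144 and 147 CPM in Ctrl libraries. The Ctrl-DMSO libraries were the highest, and the other groups lay close together. Id2 was lower in Sh2-DMSO than in Ctrl-DMSO cells (log2 change -0.18, SE 0.046, adjusted p = 0.00189) and lower in Ctrl-Thap than in Ctrl-DMSO cells (log2 change -0.19, SE 0.046, adjusted p = 0.000577).

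The Id2 change did not pass for Sh2-Thap over Ctrl-Thap (log2 change -0.075, SE 0.046, adjusted p = 0.168, 95% interval -0.17 to 0.019) or for Sh2-Thap over Sh2-DMSO (log2 change -0.085, SE 0.047, adjusted p = 0.103, 95% interval -0.18 to 0.0096), and both signs turned under total-count scaling. The second of these passed without Sh2-DMSO replicate 3 (log2 change -0.15, adjusted p = 0.00756). The difference of the Id2 effects did not pass (0.10, 95% interval -0.033 to 0.23, adjusted p = 0.252), except under total-count scaling (log2 change 0.26, adjusted p = 0.00125).

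Id4 (ENSMUSG00000021379, chromosome 13, 48261228 to 48266026, plus strand), known best from neural and germ line stem cells, was near the lower end of detection. It had 31, 38 and 41 reads in Sh2-Thap, 19, 30 and 22 in Sh2-DMSO, 21, 33 and 34 in Ctrl-Thap and 5, 7 and 10 in Ctrl-DMSO libraries, and passed the filter through groups other than Ctrl-DMSO. As CPM this was 0.911, 1.23 and 1.2 in Sh2-Thap and 0.614, 0.884 and 0.636 in Sh2-DMSO, and 0.675, 0.715 and 0.955 in Ctrl-Thap and 0.146, 0.2 and 0.289 in Ctrl-DMSO libraries. The Ctrl-DMSO libraries were the lowest of the 12 and did not overlap with any other group. Id4 was higher in Sh2-DMSO than in Ctrl-DMSO cells (log2 change 1.73, SE 0.38, adjusted p = 0.000246) and higher in Ctrl-Thap than in Ctrl-DMSO cells (log2 change 1.87, SE 0.37, adjusted p = 3.16e-05). Both calls set Ctrl-DMSO against a group that helped Id4 pass the filter. They are therefore given as descriptions of these libraries only. The difference of effects given below also uses Ctrl-DMSO and has the same limit.

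The other Id4 results changed their call in some alternatives. The rise with thapsigargin in Sh2 cells (log2 change 0.64, SE 0.29, adjusted p = 0.0488) passed in 8 of 20 alternatives, with adjusted p from 0.02 to 0.137, and was lost without any single library of Sh2-Thap replicates 2 and 3, Sh2-DMSO replicates 1 and 3, Ctrl-DMSO replicate 2 or the Ctrl-Thap group, at log2 changes of 0.54 to 0.64. The difference of effects (log2 change -1.23, SE 0.48, adjusted p = 0.0434) passed in 8 of 19, with adjusted p from 0.0286 to 0.128, and was lost without Ctrl-DMSO replicate 1 or 2, Ctrl-Thap replicate 3, Sh2-DMSO replicate 2 or Sh2-Thap replicate 1 or 3, at -1.02 to -1.29. Sh2-Thap and Ctrl-Thap libraries overlapped, and their change did not pass (log2 change 0.51, SE 0.28, adjusted p = 0.123), except under total-count scaling (log2 change 0.64, adjusted p = 0.0477).

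Levels of different genes were compared per kilobase of exon. Id3 stood first in Sh2-Thap at 159 ± 4.45 CPM per kb and in Ctrl-Thap at 219 ± 12.4 CPM per kb, ahead of Id1 at 60.9 ± 2.87 and 93.4 ± 4.65 CPM per kb. In Sh2-DMSO Id1 led at 193 ± 3.49 CPM per kb with Id3 at 181 ± 4.11 CPM per kb. In Ctrl-DMSO Id1 at 182 ± 6.43 and Id3 at 179 ± 8.34 CPM per kb overlapped. Id2 came next in each group, at 50 ± 0.847 CPM per kb in Sh2-Thap, 53.0 ± 3.65 in Sh2-DMSO, 52.7 ± 1.27 in Ctrl-Thap and 59.9 ± 0.672 in Ctrl-DMSO. After Id2 came Smad7 in Sh2-Thap, Sh2-DMSO and Ctrl-Thap cells, and Tgfb3 in Ctrl-DMSO cells at 25.3 ± 0.0871 CPM per kb. Bmp4 and Id4 were last in each group, at no more than 1.61 ± 0.263 CPM per kb. Further down the order, Tgfb1 and Tgfb3, and Tgfb2 and Smad6, overlapped in Sh2-DMSO, and Tgfb2, Tgfb3 and Smad6 overlapped with their neighbours in Ctrl-Thap. No other neighbours in the order overlapped.

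The ID transcripts together came to 270.4 ± 2.16 CPM per kb in Sh2-Thap, 428 ± 10.1 in Sh2-DMSO, 365 ± 17.2 in Ctrl-Thap and 421 ± 14.2 in Ctrl-DMSO cells (mean ± SD, n = 3). Id1 made up 22.5 ± 1.09% of this sum in Sh2-Thap and 45.2 ± 0.705% in Sh2-DMSO, and 25.6 ± 0.323% in Ctrl-Thap and 43.2 ± 0.117% in Ctrl-DMSO cells. Id3 made up 58.9 ± 1.36% in Sh2-Thap and 42.4 ± 0.298% in Sh2-DMSO, and 59.9 ± 0.561% in Ctrl-Thap and 42.6 ± 0.56% in Ctrl-DMSO cells. The thapsigargin and DMSO libraries did not overlap in either share. The ratio of Id1 to Id3 per kb within a library, which no scaling alters, was 0.383 ± 0.0272 in Sh2-Thap, 1.07 ± 0.0217 in Sh2-DMSO, 0.427 ± 0.00613 in Ctrl-Thap and 1.01 ± 0.0126 in Ctrl-DMSO cells. Id4 stayed at or under 0.119% of the sum in every library.

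The E protein genes Tcf3, Tcf4 and Tcf12, whose products the ID proteins bind, summed to 43.0 ± 0.85 CPM per kb in Sh2-Thap and 52.8 ± 0.993 in Sh2-DMSO, and to 48.3 ± 1.36 in Ctrl-Thap and 62.7 ± 1.14 in Ctrl-DMSO cells. The ID sum over the E protein sum was 6.29 ± 0.117 in Sh2-Thap and 8.09 ± 0.0465 in Sh2-DMSO, with 7.57 ± 0.483 in Ctrl-Thap and 6.71 ± 0.175 in Ctrl-DMSO cells. By this ratio the thapsigargin libraries were below the DMSO libraries in Sh2 cells and above them in Ctrl cells. These sums and ratios are given as descriptions, with no test.

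The TGF-beta ligand pool differed in make-up between all 4 groups. Tgfb2 was 50.4 ± 1.57% of the summed Tgfb1, Tgfb2 and Tgfb3 level per kb in Sh2-Thap, 21.9 ± 1.15% in Sh2-DMSO, 28.1 ± 1.01% in Ctrl-Thap and 10.4 ± 0.683% in Ctrl-DMSO cells. Tgfb3 was 21.5 ± 0.0707% in Sh2-Thap, 38.9 ± 1.48% in Sh2-DMSO, 26.1 ± 0.404% in Ctrl-Thap and 48.2 ± 0.946% in Ctrl-DMSO cells. Tgfb2 was the main isoform of the pool in Sh2-Thap cells and the smallest in both DMSO groups, and Tgfb3 led in Ctrl-DMSO cells. Tgfb1 held 28.1 ± 1.51% in Sh2-Thap, 39.2 ± 2.23% in Sh2-DMSO, 45.9 ± 0.983% in Ctrl-Thap and 41.3 ± 1.63% in Ctrl-DMSO cells. The pool itself was 30.6 ± 0.911 CPM per kb in Sh2-Thap, 45.6 ± 1.52 in Sh2-DMSO, 21.2 ± 1.42 in Ctrl-Thap and 52.5 ± 1.13 in Ctrl-DMSO cells.

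**Figure D3:**
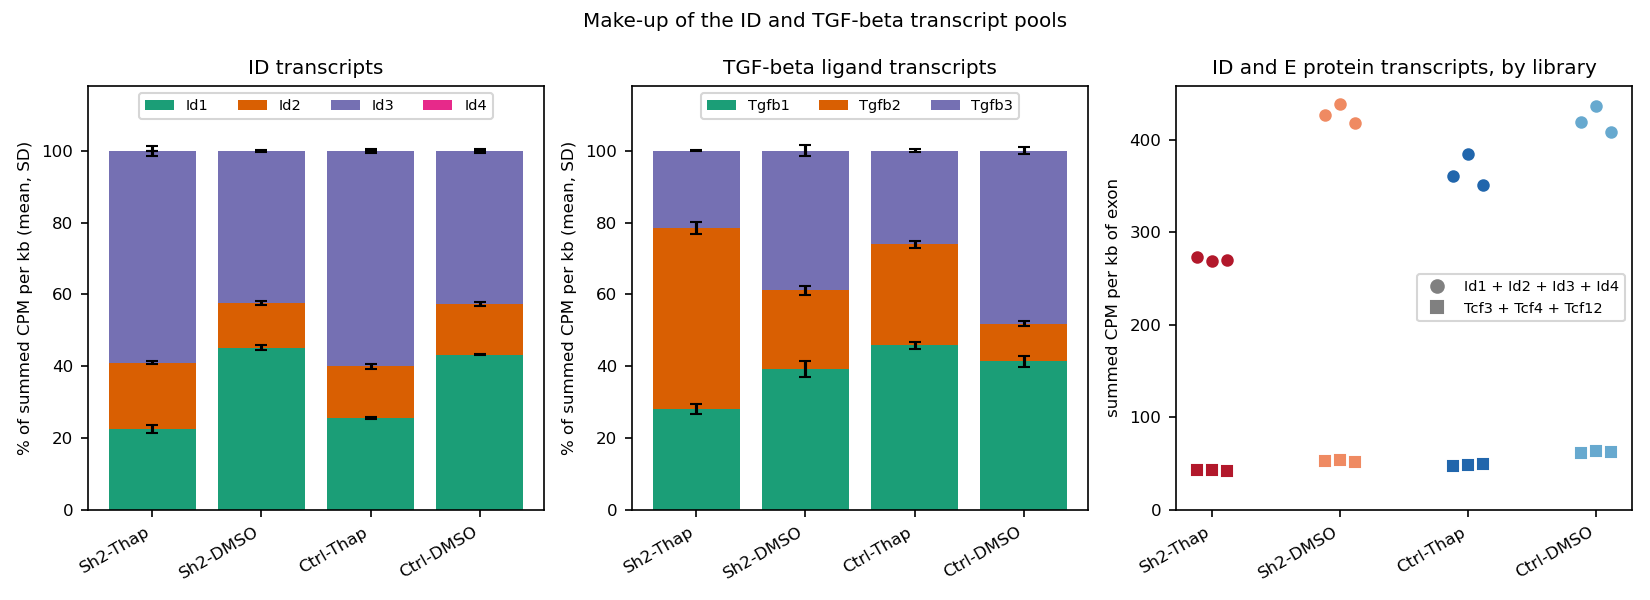
Share of each gene in the ID (left) and TGF-beta ligand (middle) transcript sums (y axis, % of summed CPM per kb; stacked bars are means of 3 libraries with SD bars), and the ID and E protein sums per library (right, CPM per kb of exon). Id1 gives way to Id3 in both thapsigargin groups, Tgfb2 is the largest ligand share in Sh2-Thap, and the ID sum is lowest in Sh2-Thap at 269 to 273 CPM per kb; Id4 is too small to see.

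Exons of 4 members share bases with a gene on the opposite strand: 7.6% of Tgfb3 exon bases with Gm48008 and 4.82% with Gm37804, 4.44% of Id4 with Gm49291 and 2.13% with A330033J07Rik, 3.96% of Bmp4 with Gm15217, and 2.14% of Tgfb2 with Gm29491. The sources used here do not say whether strand was used in counting, so reads in those stretches are uncertain.

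The rest of the pathway was followed through 9 lists of 103 other genes, 88 of which were tested. Of these 88, 37 rose and 25 fell in Sh2-Thap over Ctrl-Thap, and 31 rose and 28 fell in Sh2-DMSO over Ctrl-DMSO, with medians of 0.055 and 0.011. With thapsigargin 31 rose and 37 fell in Sh2 cells and 32 rose and 44 fell in Ctrl cells, with medians of -0.09 and -0.24. The difference of effects passed upward in Sh2 minus Ctrl for 30 and downward for 19. As background, 56.9%, 51.5%, 69.8%, 74.7% and 35.3% of all genes passed in these comparisons, in the order given.

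Of 15 further ligand genes 5 were tested. In Sh2-Thap over Ctrl-Thap, 1 rose, 0 fell and 4 did not pass (median 0.02), in Sh2-DMSO over Ctrl-DMSO 3 rose, 2 fell and 0 did not pass (median 0.92), in Sh2-Thap over Sh2-DMSO 1 rose, 2 fell and 2 did not pass (median -0.14) and in Ctrl-Thap over Ctrl-DMSO 2 rose, 2 fell and 1 did not pass (median 0.26). Inhba, the activin A subunit, had 541 ± 39.0 CPM in Sh2-Thap and 270.4 ± 17.5 CPM in Ctrl-Thap cells, and 391 ± 31.5 CPM in Sh2-DMSO and 207 ± 25.6 CPM in Ctrl-DMSO cells. It was higher in Sh2 cells by 1.0 with thapsigargin (adjusted p = 3.43e-07) and by 0.92 in DMSO (adjusted p = 1.25e-06), where it set the list median. The other rises in DMSO, Bmp6 and Bmp8a, were near the lower end of detection. They had 0.24 and 0.685 CPM in Sh2-DMSO and 0.0482 and 0.192 CPM in Ctrl-DMSO cells. Bmp6, at 0.551 CPM in Ctrl-Thap cells, was also among the rises in Ctrl cells. The size of these changes is therefore uncertain. Gdf11, a close relative of myostatin, fell with thapsigargin by 1.24 in Sh2 cells (adjusted p = 6.78e-19) and by 1.54 in Ctrl cells (adjusted p = 6.49e-22).

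Of 13 receptor genes 12 were tested. In Sh2-Thap over Ctrl-Thap 5 rose, 3 fell and 4 did not pass (median 0.11), in Sh2-DMSO over Ctrl-DMSO 1 rose, 3 fell and 8 did not pass (median -0.035), in Sh2-Thap over Sh2-DMSO 3 rose, 6 fell and 3 did not pass (median -0.44) and in Ctrl-Thap over Ctrl-DMSO 3 rose, 8 fell and 1 did not pass (median -0.52). Bmpr1b, a type I BMP receptor of low level here, was 2.95-fold higher in Sh2-Thap than in Ctrl-Thap cells (adjusted p = 3.79e-07), at 2.89 ± 0.123 and 0.97 ± 0.122 CPM. The more abundant type I receptor genes Bmpr1a and Acvr1 were lower there (log2 changes -0.28 and -0.17, adjusted p = 8.29e-05 and 0.000855). Bmpr1a had 79.1 ± 4.78 and 95.6 ± 4.77 CPM, and Acvr1 had 125 ± 0.518 and 140 ± 1.18 CPM. The adjusted p of Acvr1 reached 0.509 among the alternatives. The activin receptor genes Acvr1b and Acvr2b were lowered by thapsigargin in Ctrl cells (log2 changes -1.53 and -1.31, adjusted p = 3.12e-16 and 5.02e-05). Both were also lowered in Sh2 cells (log2 changes -0.98 and -1.09, adjusted p = 2.03e-11 and 0.000785). Acvr2b was of low level, at 0.555 ± 0.103 CPM in Ctrl-Thap and 1.41 ± 0.0681 CPM in Ctrl-DMSO cells. Tgfbr2, the type II receptor that binds TGF-beta, was lower in Sh2-DMSO than in Ctrl-DMSO cells (log2 change -0.28, SE 0.048, adjusted p = 8.76e-06), at 87.7 ± 2.71 and 107 ± 1.17 CPM. With thapsigargin the order was not kept: it had 53.3 ± 3.15 CPM in Sh2 and 48.5 ± 1.45 CPM in Ctrl cells, with overlapping libraries.

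All 6 SMAD transducer genes were tested. With thapsigargin 5 rose, 1 fell and 0 did not pass in Ctrl cells (median 0.35) and 5 rose, 0 fell and 1 did not pass in Sh2 cells (median 0.34). In Sh2-Thap over Ctrl-Thap 1 rose, 1 fell and 4 did not pass (median -0.04), and in Sh2-DMSO over Ctrl-DMSO 2 rose, 1 fell and 3 did not pass (median 0.096). Smad9, a BMP transducer, had 34.4 ± 2.57 CPM in Ctrl-Thap and 13.3 ± 1.49 CPM in Ctrl-DMSO cells (log2 change 1.37, SE 0.077, adjusted p = 3.58e-17). Smad2, a TGF-beta transducer, was higher in Sh2-Thap than in Ctrl-Thap cells (log2 change 0.31, SE 0.046, adjusted p = 6.58e-07). Smad3, its partner in that branch, was lower in Sh2-DMSO than in Ctrl-DMSO cells (log2 change -0.51, SE 0.05, adjusted p = 3.44e-10) and lower in Sh2-Thap than in Ctrl-Thap cells (log2 change -0.22, SE 0.05, adjusted p = 0.000274), where total-count scaling ended the call (log2 change -0.091, adjusted p = 0.128).

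Of 12 regulators of SMAD signalling, 6 rose, 4 fell and 2 did not pass in Sh2-Thap over Ctrl-Thap (median 0.22), 6 rose, 1 fell and 5 did not pass in Sh2-DMSO over Ctrl-DMSO (median 0.17), 8 rose, 2 fell and 2 did not pass in Sh2-Thap over Sh2-DMSO (median 0.26) and 6 rose, 3 fell and 3 did not pass in Ctrl-Thap over Ctrl-DMSO (median 0.46). The ubiquitin ligase genes Smurf2 and Nedd4l, whose products work with SMAD7 on the receptors, were higher in Sh2-Thap than in Ctrl-Thap cells (log2 changes 0.57 and 0.57, adjusted p = 2.5e-12 and 3.24e-12). The related ligase gene Smurf1 went the other way, at 171 ± 6.86 CPM in Sh2-Thap and 197 ± 3.16 CPM in Ctrl-Thap cells, with no overlap. Ppm1a and Tgif1 were also lower in Sh2-Thap cells (log2 changes -0.39 and -0.26, adjusted p = 7.14e-10 and 6.71e-06). Skil, the SnoN repressor, rose with thapsigargin in Ctrl cells (log2 change 1.04, SE 0.05, adjusted p = 5.65e-19) and in Sh2 cells (log2 change 0.69, SE 0.049, adjusted p = 3.59e-14). Ski, its relative, fell in Ctrl cells (log2 change -0.79, SE 0.048, adjusted p = 3.28e-16). It also fell in Sh2 cells (log2 change -0.61, SE 0.047, adjusted p = 3.07e-13).

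Of 15 extracellular antagonist genes 13 were tested. In Sh2-Thap over Ctrl-Thap 6 rose, 4 fell and 3 did not pass (median 0.13), in Sh2-DMSO over Ctrl-DMSO 5 rose, 5 fell and 3 did not pass (median -0.084), in Sh2-Thap over Sh2-DMSO 2 rose, 6 fell and 5 did not pass (median -0.14) and in Ctrl-Thap over Ctrl-DMSO 3 rose, 8 fell and 2 did not pass (median -0.53). Fst, which encodes follistatin, the trap for activin and myostatin, had 30.9 ± 2.64 CPM in Sh2-Thap and 7.26 ± 0.167 CPM in Ctrl-Thap cells (log2 change 2.09, SE 0.078, adjusted p = 2.95e-21). In DMSO it had 32.7 ± 1.38 CPM in Sh2 and 7.66 ± 0.443 CPM in Ctrl cells (log2 change 2.09, SE 0.078, adjusted p = 1.02e-20). Crim1, which binds BMPs, was higher in Sh2-Thap than in Ctrl-Thap cells (log2 change 1.81, SE 0.057, adjusted p = 3.92e-23). Chrdl1, a chordin-like BMP antagonist, was lower (log2 change -4.13, SE 0.33, adjusted p = 9.04e-13), at 0.14 ± 0.04 CPM in Sh2-Thap and 2.54 ± 0.34 CPM in Ctrl-Thap cells. In DMSO it had 0.0497 ± 0.0151 CPM in Sh2 and 0.327 ± 0.0698 CPM in Ctrl cells. It was thus near the lower end of detection outside Ctrl-Thap, which mainly carried it through the filter. The size of this change is therefore uncertain. Decorin, encoded by Dcn, which binds TGF-beta in the matrix, was also lower in Sh2-Thap than in Ctrl-Thap cells (log2 change -1.17, SE 0.14, adjusted p = 1.97e-08). Fstl1, a follistatin-like gene, fell with thapsigargin to 305 ± 5.82 CPM in Sh2-Thap, against 974.7 ± 53.4 CPM in Sh2-DMSO cells (log2 change -1.67, SE 0.047, adjusted p = 5.95e-25), and to 495 ± 12 CPM in Ctrl-Thap, against 1928 ± 95.1 CPM in Ctrl-DMSO cells (log2 change -1.96, SE 0.047, adjusted p = 3.2e-27).

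Of 14 genes for the latent TGF-beta complex and its activation, 7 rose, 5 fell and 2 did not pass in Sh2-Thap over Ctrl-Thap (median 0.13), 5 rose, 6 fell and 3 did not pass in Sh2-DMSO over Ctrl-DMSO (median -0.089 without 1 gene that had no reads in Ctrl-DMSO, -0.079 as fitted), 1 rose, 10 fell and 3 did not pass in Sh2-Thap over Sh2-DMSO (median -0.93) and 2 rose, 11 fell and 1 did not pass in Ctrl-Thap over Ctrl-DMSO. The last median was -0.91, with that gene set at its bound of 3 reads per library, and the same as fitted. Thbs1, whose product thrombospondin 1 can activate latent TGF-beta, had 313 ± 41.0 CPM in Sh2-Thap and 79.0 ± 1.32 CPM in Ctrl-Thap cells (log2 change 1.98, SE 0.064, adjusted p = 1.2e-18). In DMSO it had 1049 ± 38.3 CPM in Sh2 and 619 ± 13.7 CPM in Ctrl cells (log2 change 0.76, SE 0.059, adjusted p = 1.03e-10), and thapsigargin lowered it by 1.75 in Sh2 and by 2.97 in Ctrl cells (log2, adjusted p = 3.76e-18 and 1.5e-22). Itgb6, a subunit of an integrin that activates latent TGF-beta, was higher in Sh2-Thap than in Ctrl-Thap cells (log2 change 1.04, SE 0.11, adjusted p = 2e-09). Emilin1, which holds back TGF-beta maturation, was lower (log2 change -2.04, SE 0.083, adjusted p = 2.94e-19), as was the fibrillin gene Fbn1 (log2 change -1.37, SE 0.053, adjusted p = 4.56e-20).

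Of 12 TGF-beta target genes 11 were tested. In Sh2-Thap over Ctrl-Thap 8 rose, 1 fell and 2 did not pass (median 0.27), in Sh2-DMSO over Ctrl-DMSO 5 rose, 2 fell and 4 did not pass (median 0.27), in Sh2-Thap over Sh2-DMSO 6 rose, 4 fell and 1 did not pass (median 0.19) and in Ctrl-Thap over Ctrl-DMSO 4 rose, 5 fell and 2 did not pass (median -0.28). Ctgf, a matricellular gene, had 501 ± 55.6 CPM in Sh2-Thap and 120.0 ± 0.526 CPM in Ctrl-Thap cells (log2 change 2.06, SE 0.079, adjusted p = 8.32e-13). Snai2, a Snail family repressor, was lower at 96.3 ± 0.437 CPM in Sh2-Thap and 189 ± 7.45 CPM in Ctrl-Thap cells (log2 change -0.97, SE 0.046, adjusted p = 1.21e-18). Thapsigargin lowered Ctgf and the collagen gene Col1a1 in Ctrl cells (log2 changes -1.61 and -1.47, adjusted p = 8.37e-12 and 2.79e-18) and raised Snai2 and Klf10 (log2 changes 1.78 and 1.63, adjusted p = 5.51e-26 and 6.65e-25). Col1a1, Snai2 and Klf10 moved the same way in Sh2 cells (log2 changes -1.16, 1.83 and 1.30, adjusted p = 7.88e-16, 5.28e-25 and 3.71e-22). In Sh2 cells Ctgf had 501 ± 55.6 CPM with thapsigargin and 439.9 ± 46.4 CPM in DMSO, libraries that overlapped (log2 change 0.19, SE 0.075, adjusted p = 0.0359), and its effect in Sh2 minus that in Ctrl cells was 1.79 (adjusted p = 1.45e-09).

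Of 12 BMP target genes other than the members, 11 were tested. In Sh2-Thap over Ctrl-Thap 4 rose, 4 fell and 3 did not pass (median -0.19), in Sh2-DMSO over Ctrl-DMSO 5 rose, 3 fell and 3 did not pass (median 0.047), in Sh2-Thap over Sh2-DMSO 2 rose, 5 fell and 4 did not pass (median -0.37) and in Ctrl-Thap over Ctrl-DMSO 3 rose, 5 fell and 3 did not pass (median -0.081). The homeobox gene Msx2 was higher in Sh2-Thap than in Ctrl-Thap cells (log2 change 1.28, SE 0.15, adjusted p = 1.13e-08), and Hey1, a bHLH repressor shared with Notch signalling, was lower (log2 change -0.88, SE 0.054, adjusted p = 1.3e-15). The homeobox gene Dlx2 was higher in Sh2-DMSO than in Ctrl-DMSO cells (log2 change 1.06, SE 0.082, adjusted p = 4.54e-11). Hes1, which also answers to Notch, fell with thapsigargin in Sh2 cells (log2 change -1.21, SE 0.048, adjusted p = 9e-21) and in Ctrl cells (log2 change -0.94, SE 0.047, adjusted p = 1.88e-18).

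Of the 7 bHLH genes whose products ID proteins bind or hold off DNA, 1 rose, 3 fell and 3 did not pass in Sh2-Thap over Ctrl-Thap (median -0.015), 1 rose, 5 fell and 1 did not pass in Sh2-DMSO over Ctrl-DMSO (median -0.28), 4 rose, 3 fell and 0 did not pass in Sh2-Thap over Sh2-DMSO (median 0.28) and 5 rose, 2 fell and 0 did not pass in Ctrl-Thap over Ctrl-DMSO (median 0.40). Myog, which encodes the differentiation factor myogenin, had 1.13 ± 0.208 CPM in Sh2-Thap and 7.01 ± 0.236 CPM in Ctrl-Thap cells (log2 change -2.63, SE 0.19, adjusted p = 1.59e-13). In DMSO it had 0.661 ± 0.222 CPM in Sh2 and 4.37 ± 1.19 CPM in Ctrl cells (log2 change -2.73, SE 0.22, adjusted p = 6.31e-12). Myf5, a factor of undifferentiated myoblasts, rose with thapsigargin in Sh2 cells (log2 change 2.5, SE 0.063, adjusted p = 9.67e-22) and in Ctrl cells (log2 change 2.03, SE 0.063, adjusted p = 3.7e-20). The E protein gene Tcf4 was lower in Sh2-Thap than in Ctrl-Thap cells (log2 change -0.94, SE 0.056, adjusted p = 6.71e-16). Myod1, the master factor of the lineage, had 110.1 ± 7.87 CPM in Sh2-Thap and 107 ± 1.96 CPM in Ctrl-Thap cells, a change that did not pass (log2 change 0.044, SE 0.049, adjusted p = 0.464). Its DMSO level was 124 ± 5.59 CPM in Sh2 and 151 ± 4.65 CPM in Ctrl cells (log2 change -0.28, SE 0.049, adjusted p = 1.08e-05). Thapsigargin lowered Myod1 in Sh2 cells (log2 change -0.17, SE 0.049, adjusted p = 0.00285) and in Ctrl cells (log2 change -0.50, SE 0.049, adjusted p = 6.41e-11), and those effects differed by 0.33 (adjusted p = 0.00031).

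**Figure D4:**
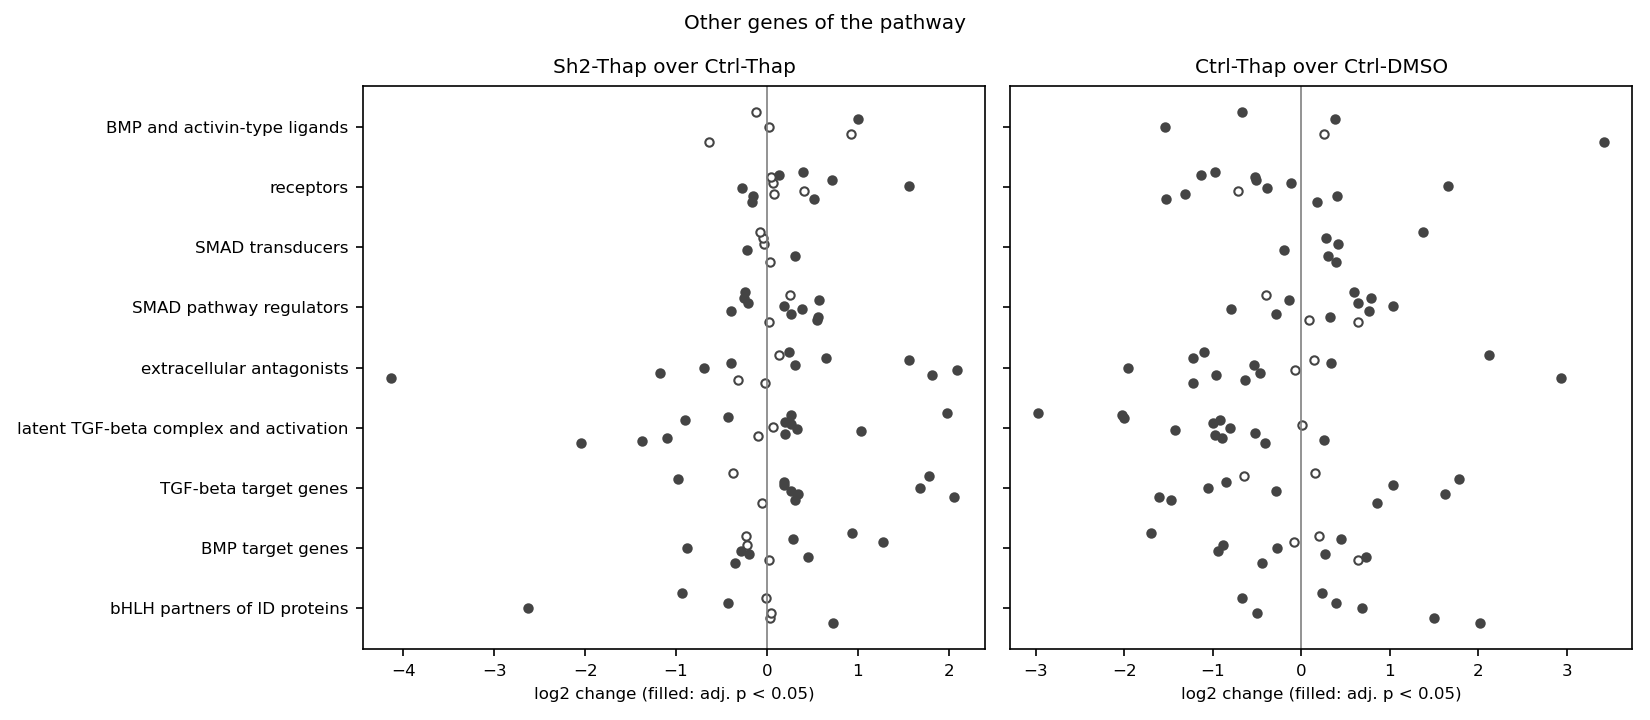
Fitted log2 change (x axis) of the tested genes of the 9 lists (y axis, 1 point per gene; filled points have an adjusted p under 0.05) for Sh2-Thap over Ctrl-Thap (left) and Ctrl-Thap over Ctrl-DMSO (right). Each list spans both sides of 0 in both comparisons; 1 gene with no reads in Ctrl-DMSO is not drawn.

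For each member other than Id3, the 3 genes of most similar pattern over the 12 libraries were found among 10201 genes with a mean of at least 5 CPM, by the root mean square difference of log2 CPM after centring each gene on its own mean. The values in brackets are those differences on the log2 scale, smaller meaning more alike. Among the ligands, Bmp4 was nearest to Slco4a1 (0.273), Havcr2 (0.284) and Tuba4a (0.298), and Tgfb1 to Tmem132a (0.0591), Mcm2 (0.0777) and CAAA01147332.1 (0.079). Tgfb2 was nearest to Vegfc (0.103), Rhod (0.113) and Wwc1 (0.126), and Tgfb3 to Timp2 (0.0966), Lfng (0.0998) and Chst1 (0.126). Smad6 was nearest to Akt1 (0.0762), Akr1b8 (0.0808) and Aars2 (0.0869), and Smad7 to Tcim (0.132), Dlx2 (0.138) and Slc19a2 (0.166), of which Dlx2 is also on the BMP target list. Id1 was nearest to Dpysl2 (0.116), Fbln5 (0.134) and Gm49759 (0.139), and Id2 to Map1lc3b (0.0466), Tmem259 (0.0502) and Stard3 (0.0503). Id4 was nearest to Epha2 (0.245), Mdm2 (0.282) and Sema4f (0.309). None of these nearest genes was itself a member, but Bmp4 and Id4 lay under the limit of 5 CPM and could not have been found.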

How the data were processed

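Gene counts from 12 mRNA libraries were used as the authors deposited them, 1 whole-number count per gene and library. Per the submitters' processing notes, Trim Galore, STAR 2.5.3a, bedtools 2.31.0 and DESeq2 were used, with the builds mm10 and hg38. The counter, the annotation and the use of strand are not given in the sources used here. The 5 rows that name no gene held 13.3% to 14.6% of reads and were left out, which left 29.4 to 47.7 M gene reads per library.

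All 12 libraries were fitted together in edgeR 4.0.16 (R 4.3.3) with a mean per group, TMM factors (0.967 to 1.07), filterByExpr and the robust quasi-likelihood test, which kept 15828 genes. P-values were Benjamini-Hochberg adjusted over all of them, and SEs are approximate (the log2 change over the root of F). The fitting code was tested on simulated data. DESeq2 1.42.0 and limma 3.58.1 (voom) served as alternatives, with other scalings, filters and thresholds and with each library left out. Figures were drawn with matplotlib 3.10.9. Levels are TMM-scaled CPM, chosen after the values were seen because CPM without TMM factors and the fit differed in direction for Id2, Id3 and Smad6 in comparisons that did not pass. The promoter motifs were also chosen after the sequences were seen.

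The members and lists were chosen with earlier results of these data known. All members are named. The rule for list genes gives, per list and comparison, up to 2 genes per direction that passed, by size of log2 change among genes with a mean of at least 1 CPM in 1 group. Of these only some are printed, picked with their values known, and some are also given in comparisons outside the rule. Other genes named (Cebpg, marker genes, the genes of similar pattern and overlapping genes) follow from the checks stated beside them. The genes of similar pattern to Id3 and 1 TGF-beta target gene are not reported here.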

Additional observations from a re-analysis of the deposited data

Results flagged for a closer look

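For 7 members the thapsigargin effect in Sh2 cells differed from that in Ctrl cells by the test of the difference itself (edgeR, adjusted p under 0.05), and 35.3% of all genes tested did so. On the log2 scale the effect in Sh2 minus that in Ctrl cells was 0.77 for Tgfb3 and 0.52 for Tgfb2. It was -0.95 for Smad7, -0.71 for Id1 and -0.48 for Id3. It was -1.23 for Id4 and -0.27 for Smad6, which kept their call in only 8 of 19 and 12 of 20 alternatives. The Id4 difference rests partly on Ctrl-DMSO libraries of 5, 7 and 10 reads. Because Id4 passed the filter through other groups, its value is given as a description only. Groups of 3 libraries were too small for a search for outlying libraries.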

How the results depend on the processing

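Of 1035 member values under alternatives, 980 kept their direction and their side of the threshold, 39 lost a call, 11 gained one and 5 turned sign. No member that turned sign had passed. Under total-count scaling, Id3 in Sh2-DMSO over Ctrl-DMSO was -0.0097, Id2 and Smad6 in Sh2-Thap over Ctrl-Thap were 0.057 and 0.061, and Id2 in Sh2-Thap over Sh2-DMSO was 0.035. With single libraries left out, Id3 in Sh2-DMSO over Ctrl-DMSO ran from -0.014 (without Ctrl-DMSO replicate 3) to 0.064 (without Ctrl-DMSO replicate 2). Total-count scaling leaves out the TMM factors and so moves the genes of a comparison together. Of 3122 values of 150 named list results, 3053 kept direction and call, 69 lost the call and 0 turned sign. Every count of genes or members that passed, over both directions, stayed within 1.5 times. By direction, members raised by thapsigargin in Sh2 cells went to 1 (2 in the fit as reported) in 13 alternatives. In the difference of effects, 4 members were upward under total-count scaling (2 as reported), and 3 downward (5 as reported) under that scaling, with no filter, at a threshold of 0.01, without Ctrl-Thap replicate 3 and without Sh2-DMSO replicate 2. Under total-count scaling 5204 genes were upward and 1685 downward there (2790 and 2804 with TMM). Replicate numbers were not shown to pair the libraries: 5 of 18 same-numbered pairs correlated above 0.1 (range -0.205 to 0.316). With a replicate block 8279 genes passed for the knockdown in DMSO and 9109 with thapsigargin, 11117 for thapsigargin in Sh2 and 11854 in Ctrl cells, and 5770 for the difference. Without the block these were 8154, 9007, 11051, 11830 and 5594. Under the block Id4 in Sh2-Thap over Sh2-DMSO lost its call (log2 change 0.64, adjusted p = 0.0505). Bmp4 and Id4 rest on few reads, which limits their precision.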
